A study of Homo sapiens with 8 samples.

Results

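The 8 genes described here, POU5F1, NANOG, PRDM14, SALL4, LIN28A, LIN28B, ZFP42 and DPPA4, encode regulators or markers of the pluripotent state. They were chosen by name, as 8 of the 20033 protein-coding genes of the GENCODE release 44 annotation of hg38, and every H3K27ac peak in the gene body or within 20 kb on either side was taken, genes with no peak included. The peaks come from chromatin immunoprecipitation of H3K27ac followed by sequencing in pancreatic progenitors (PPs) derived from MEL1, which the study names MEL1 INS GFP/W, a human embryonic stem cell line with a GFP reporter at one insulin allele. All groups share this genotype. PPs in both groups were grown in medium with B27, EGF, bFGF and 616452, an inhibitor of the TGF-β receptor. The control group received the solvent DMSO (2 libraries), and the other group received 1 μM I-BET151, an inhibitor of BET bromodomain proteins, for 7 days (2 libraries). All libraries come from 1 cell line, and nothing in the labels says that the 2 libraries of a group came from separate cultures, so differences are read only against the spread between libraries.

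POU5F1 (OCT4) and NANOG are the DNA-binding factors at the core of the pluripotency network, which keeps its own genes active and is shut down as embryonic stem cells enter a lineage. PRDM14 and SALL4 are zinc finger proteins that back this network, and ZFP42 (REX1) and DPPA4 are widely used markers of undifferentiated cells. LIN28A and LIN28B are RNA-binding proteins that block the maturation of let-7 microRNAs and are found in stem cells and in early progenitors of many tissues. H3K27ac marks active promoters and enhancers, so the question here is which of these 8 genes still carried the mark in PPs and whether I-BET151 changed it.

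The 4 peak lists held 12312 to 14248 peaks. The ChIP read number at a summit follows from the fold and the p-value that the caller wrote, and was found for 99.6% to 99.8% of peaks. Depth came to 7.76 to 9.84 M ChIP reads and 2.67 to 3.04 M input reads, where M stands for 1e+06. At the genome-wide input level, 10 or 11 ChIP reads at one position were needed for a call. Of cell type markers, 9 of 10 pancreatic progenitor markers had a peak at their start in all 4 libraries (PTF1A had none), against 0 of 6 definitive endoderm markers, 0 of 6 endocrine markers and 2 of 6 mesenchyme markers (VIM and PDGFRB). Of all protein-coding genes, 46.9% had such a peak in all 4 libraries and 43.9% had none in any.

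The 8 genes fell into 2 sets. LIN28A, LIN28B and SALL4 had a peak at their own start, meaning a summit within 3 kb of an annotated start, in all 4 libraries. POU5F1, NANOG, PRDM14, ZFP42 and DPPA4 had no peak anywhere in their windows in any library. No gene moved between the sets with treatment. Thus 3 of 8 genes had an own-start peak in all 4 libraries, where 46.9% of all protein-coding genes did, and 5 of 8 had an empty window, where 31.8% of all protein-coding genes did and 59.6% held a peak in all 4 libraries. Neither share is far from its background for a list of 8, so the division within the list is given as a description. Another 9.19% of protein-coding genes had an own-start peak in 1 to 3 libraries, and none of the 8 genes was in that class.

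**Figure D1:**
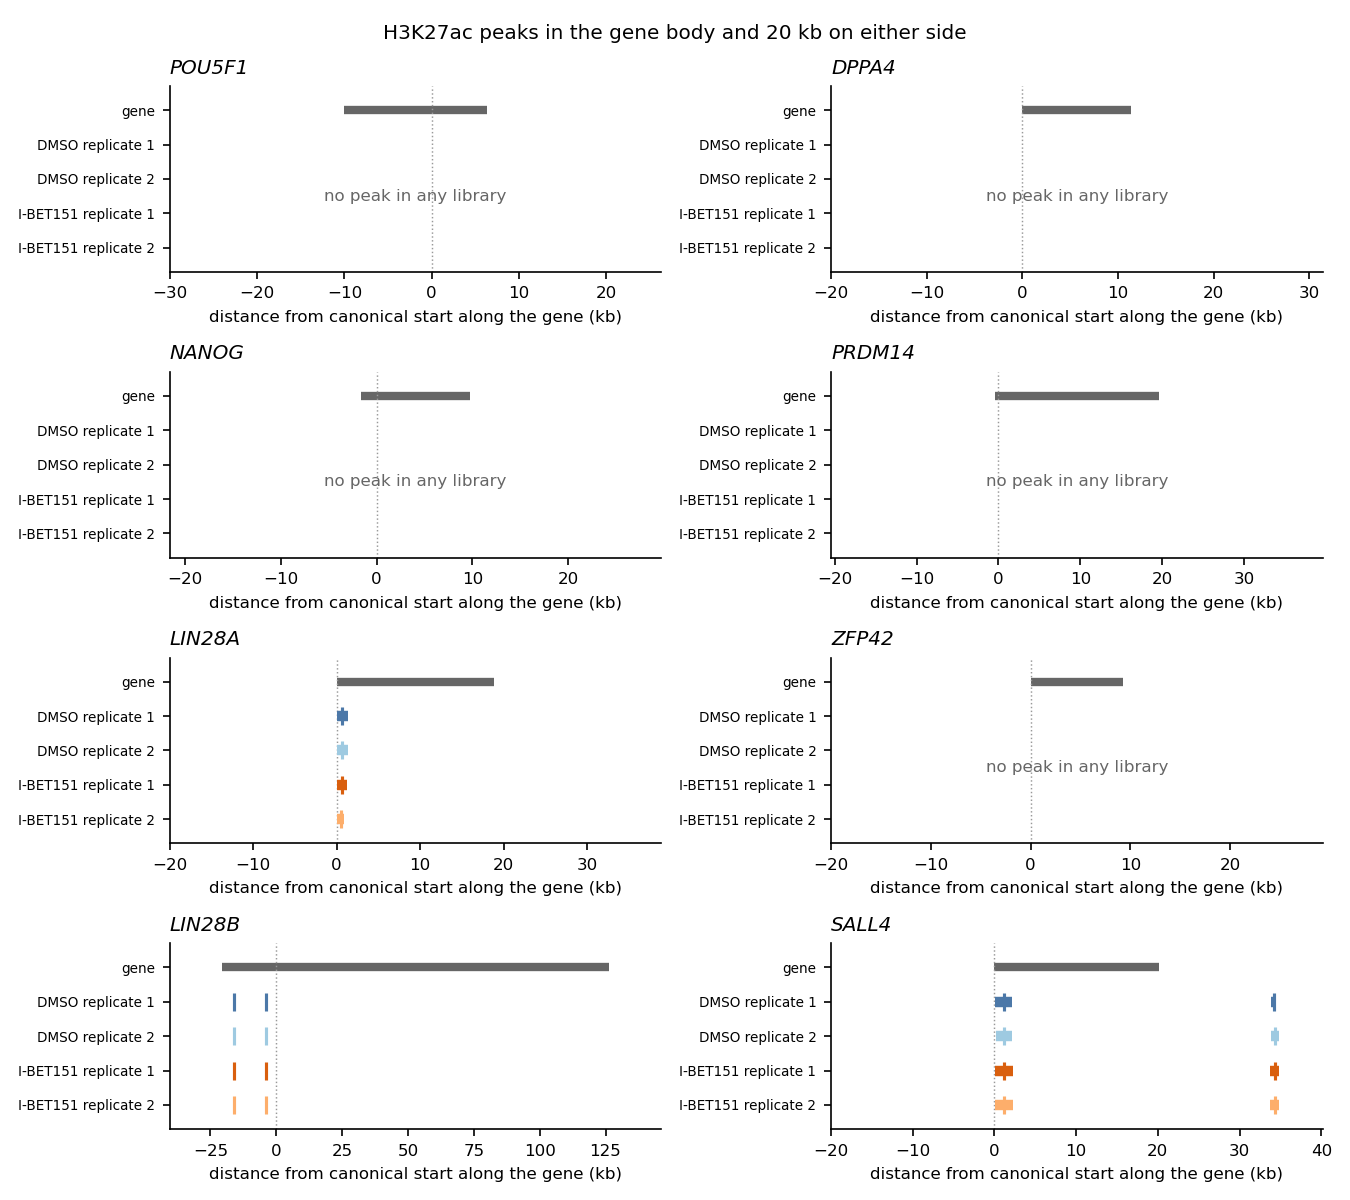
Peaks (coloured bars, with a tick at the middle of each peak) in each of the 4 libraries across the windows of the 8 genes, with the gene body in grey. The horizontal axis is the distance from the canonical start along the gene in kb, which differs in scale between panels. LIN28A, LIN28B and SALL4 hold the same peaks in all 4 libraries and the other 5 windows are empty.

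POU5F1 lies on chr6:31164337-31180731 on the minus strand. Its window of 56.4 kb also holds the starts of CCHCR1 and TCF19, and no peak was called at these either. The nearest peak to the gene body was at VARS2, 250 kb away, in 3 libraries. In I-BET151 replicate 1 a peak at MICA was nearer, at 223 kb. Of the 6378 protein-coding genes with an empty window, 68.5% to 72.5% had a peak nearer to their body than POU5F1 in the same library.

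NANOG lies on chr12:7787794-7799146 on the plus strand, in a window with no start of another protein-coding gene. Its nearest peak was at FOXJ2, 228 kb away in 3 libraries and 233 kb away in I-BET151 replicate 2. The next peak on the other side, at PEX5, was 598 kb away in every library. The promoter is shown because it carries, near the start, the composite element that POU5F1 and SOX2 bind together in stem cells. These are the 300 bp of the RefSeq promoter table (GRCh38.p14) at chr12:7789152-7789451, with the letters of the composite element in capitals.

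NANOG promoter: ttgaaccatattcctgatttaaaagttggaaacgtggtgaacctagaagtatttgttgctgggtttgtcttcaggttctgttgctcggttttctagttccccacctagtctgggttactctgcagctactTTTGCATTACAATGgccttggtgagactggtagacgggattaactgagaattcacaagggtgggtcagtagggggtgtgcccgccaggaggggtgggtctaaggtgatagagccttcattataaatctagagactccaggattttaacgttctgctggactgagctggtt

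On the opposite strand the capitals read CATTGT, the letters that SOX2 binds, then 1 base, then ATGCAAA, the letters that POU5F1 binds. They begin 120 bp before the start. Of 35114 promoters of this length in the table, 3 hold these letters on either strand (0.00854%). The letters to search for were added after seeing the data, so this share is a description and tests nothing. The letters overlap the octamer of POU factors, ATGCAAAT, which was searched for separately and occurs in 1.77% of promoters and in none of the promoters of these genes in the table. TATAAA occurs in 11.5% of promoters and in the NANOG promoter. No H3K27ac peak covered this element in DMSO or in I-BET151. POU5F1 and NANOG have processed pseudogene copies elsewhere in the genome, which share transcribed sequence with them, and how reads that map to several places were treated is not given in the sources used here.

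PRDM14, on chr8:70051651-70071693 on the minus strand, had its nearest peak at NCOA2, 330 kb away, in all 4 libraries. On its other side the nearest peak was at SULF1, 588 kb away, in DMSO replicate 2 and I-BET151 replicate 1, and at C8orf34, 1719 kb away, in the other libraries. Each treatment thus had 1 library with the SULF1 peak and 1 without it.

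DPPA4 lies on chr3:109326144-109337546 on the minus strand, in a window that also holds the start of DPPA2, a closely related gene that acts with it. Neither gene had a peak. The nearest one, at CIP2A, was 736 to 737 kb away, and on the other side the first peak was at NECTIN3, 1734 kb away. Of genes with an empty window, 92.1% to 92.5% had a peak nearer to their body.

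ZFP42 lies on chr4:187995771-188005046 on the plus strand, close to the end of the long arm. No peak was called between the gene and the end of the chromosome in any library. On the other side the nearest peak was 490 kb away in DMSO replicate 1 and I-BET151 replicate 1, and 1269 kb away, at FAT1, in DMSO replicate 2 and I-BET151 replicate 2. For 86.1% to 96.6% of genes with an empty window a peak lay nearer. The distance therefore differed between libraries of the same treatment, and each treatment showed both values.

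**Figure D2:**
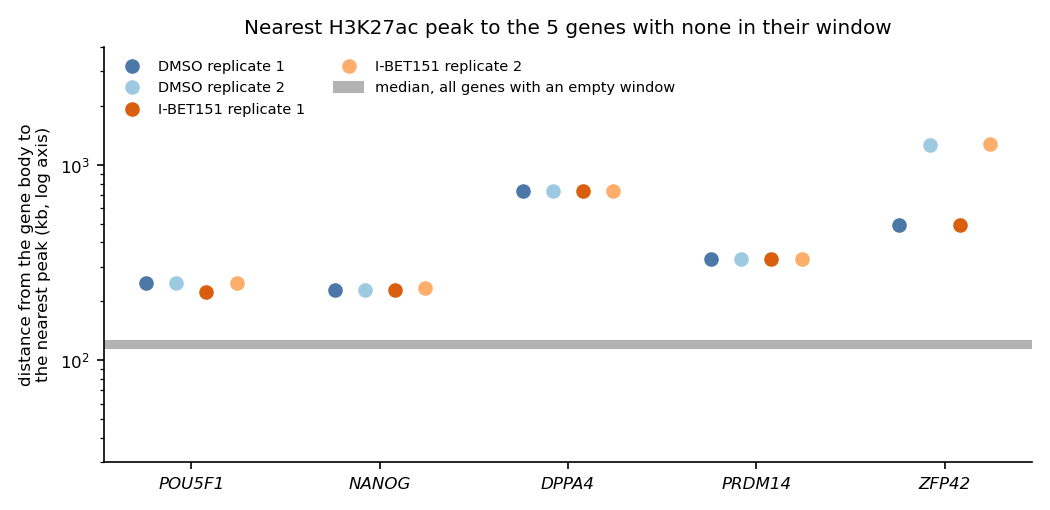
Distance from the gene body to the nearest H3K27ac peak in kb (vertical log axis) for the 5 genes with an empty window, 1 point per library. The grey band spans the medians of the 4 libraries over all protein-coding genes with an empty window, 116 to 125 kb, and every point lies above it.

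These windows stayed empty when widened to 50 and 100 kb on either side. A window empty at 20 kb makes the distance long by definition, so the 5 genes are set beside other genes with an empty window. The median distance of those was 116 to 125 kb over the 4 libraries, against 223 to 1269 kb for these 5 genes, which is a description without a test. An empty window says that no site passed the caller's threshold, not that the mark was absent.

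CpG content differed among the empty genes whose promoters are in the RefSeq table. CpG-rich promoters were called most often in these lists: of promoters with 29 to 77 CpG sites in 300 bp, 67.6% had a summit within 3 kb in all 4 libraries. The share was 52.8% with 15 to 28 sites, 17.1% with 5 to 14 sites and 3.47% with 0 to 4 sites. NANOG and DPPA4 each had 5 CpG sites. ZFP42 had 24, with 69.3% G or C, and no peak, in the class where 52.8% had a summit in all 4 libraries. Promoters of 4 of the 8 genes are in the table (NANOG, DPPA4, ZFP42 and LIN28B). The ZFP42 and DPPA4 promoters are shown to set a CpG-rich start without a peak beside a CpG-poor one, at chr4:187995521-187995820 (plus strand) and chr3:109337497-109337796 (minus strand). CpG sites are in capitals.

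ZFP42 promoter: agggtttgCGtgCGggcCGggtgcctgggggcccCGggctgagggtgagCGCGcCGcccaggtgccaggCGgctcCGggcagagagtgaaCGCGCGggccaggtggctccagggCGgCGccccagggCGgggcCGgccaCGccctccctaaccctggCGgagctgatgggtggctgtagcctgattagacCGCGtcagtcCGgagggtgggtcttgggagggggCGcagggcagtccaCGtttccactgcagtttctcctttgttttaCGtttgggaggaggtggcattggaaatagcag

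DPPA4 promoter: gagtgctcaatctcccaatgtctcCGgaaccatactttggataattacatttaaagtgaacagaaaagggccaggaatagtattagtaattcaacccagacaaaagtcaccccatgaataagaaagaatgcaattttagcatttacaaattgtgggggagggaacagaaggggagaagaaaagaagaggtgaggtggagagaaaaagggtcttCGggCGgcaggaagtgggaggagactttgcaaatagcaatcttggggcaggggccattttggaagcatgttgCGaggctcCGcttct

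By p-value and by summit reads, SALL4 carried the strongest peak of the 8 genes in every library. The gene lies on chr20:51782331-51802521 on the minus strand, and the peak spanned chr20:51800263-51802422 over the 4 libraries. Its summit lay in an intron, 1108 to 1148 bp downstream of the canonical start and 173 to 213 bp downstream of an internal annotated start, with all 4 summits within 40 bp of each other. The fold over input, as the peak caller wrote it, was 11.4 and 7.47 in DMSO and 16.5 and 8.85 in I-BET151, so the groups overlapped. In DMSO replicate 2 and I-BET151 replicate 2 the fold at the intronic LIN28B peak described later was higher, at 10.3 and 11.2. In DMSO replicate 2 the fold at LIN28A was higher too, at 10.0. By p-value the SALL4 peak ranked 448 of 13606 and 2580 of 14248 in the DMSO lists. In the I-BET151 lists it ranked 50 of 12887 and 861 of 12312, again with overlap.

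At the SALL4 summit 336 and 352 ChIP reads were found in DMSO and 418 and 424 in I-BET151. Per M ChIP reads this was 42.2 and 35.8 in DMSO against 53.9 and 52.8 in I-BET151. Both I-BET151 libraries were above both DMSO libraries, and the ratio of group means was 1.37 (log2 ratio 0.45). The mark at SALL4 was among the higher ones of the genome: of 9352 genes with an own-start peak in all 4 libraries, 75.5% to 80.9% had fewer summit reads in the DMSO libraries and 96.7% to 98.0% in the I-BET151 libraries. The highest summits of the 4 lists held 478 to 500 reads, below 2 read extensions (494 to 544 bp), the most that 1 read per position and strand allows. SALL4 in I-BET151 stood at 418 of 508 and 424 of 498 on this scale, where little room is left above it.

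The SALL4 peak was 2090 and 2027 bp wide with DMSO and 2138 and 2146 bp wide with I-BET151, again without overlap. The window also held a peak at the start of ATP9A, a phospholipid flippase gene next to SALL4, 24.8 to 24.9 kb from the nearest SALL4 start. It had 15.5 and 16.8 reads per M in DMSO and 26.8 and 25.5 in I-BET151, with a log2 ratio of 0.70. The peak at ATP9A thus differed between the groups in the same direction as the one at SALL4.

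LIN28A lies on chr1:26410817-26429728 on the plus strand and has 1 annotated start. The peak spanned chr1:26410844-26412159, within the first 1.34 kb of the gene, with summits in an intron 455 to 537 bp after the start. DHDDS, whose start lies in the same window, had no peak. The fold over input was 7.66 and 10.0 in DMSO and 7.08 and 4.69 in I-BET151.

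LIN28A was the only one of the 3 genes with less H3K27ac in I-BET151. Its summit held 178 and 167 reads in DMSO and 106 and 110 reads in I-BET151. Per M ChIP reads these were 22.4 and 17.0 in DMSO and 13.7 in both I-BET151 libraries. The groups did not overlap, and the log2 ratio was -0.52 (0.70 as a ratio). Of 10242 regions called in all 4 libraries, 5.63% had a lower log2 ratio.

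The LIN28A peak was 1316 and 1259 bp wide with DMSO and 1230 and 785 bp wide with I-BET151. The mean difference was -280 bp, of which most came from I-BET151 replicate 2: without that library the difference was -57.5 bp, and without I-BET151 replicate 1 it was -502.5 bp. The log2 ratio of summit reads per M was -0.31 without DMSO replicate 1 and -0.71 without DMSO replicate 2, and close to -0.52 without either I-BET151 library. At this gene the local input level at the summit was 8 and 4 reads in DMSO and 5 and 7 in I-BET151, so the fold over input carries the spread of the input as well.

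LIN28B, on chr6:104936616-105083332 on the plus strand, had 2 peaks, and neither covered its canonical start. The first, spanning chr6:104940604-104941679, lay at an upstream start, 15.7 to 16.3 kb before the canonical one. The second, spanning chr6:104953021-104953354, lay in an intron of the longer transcripts, 3951 to 3980 bp before the canonical start. Starts of the antisense RNA LIN28B-AS1 also fall in the first peak, and H3K27ac carries no strand, so the mark there cannot be assigned to either gene.

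LIN28B has 3 annotated starts. The first, at chr6:104936616, lies before both peaks and has no window in the RefSeq table. The promoter windows at the other starts are shown because they differ in CpG content and in H3K27ac. The upstream one, at chr6:104940715-104941014, has 37 CpG sites and 73% G or C, and lies inside the peak in all 4 libraries. The canonical one, at chr6:104956857-104957156, has 8 CpG sites and 39% G or C and no peak. CpG sites are in capitals.

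LIN28B upstream promoter: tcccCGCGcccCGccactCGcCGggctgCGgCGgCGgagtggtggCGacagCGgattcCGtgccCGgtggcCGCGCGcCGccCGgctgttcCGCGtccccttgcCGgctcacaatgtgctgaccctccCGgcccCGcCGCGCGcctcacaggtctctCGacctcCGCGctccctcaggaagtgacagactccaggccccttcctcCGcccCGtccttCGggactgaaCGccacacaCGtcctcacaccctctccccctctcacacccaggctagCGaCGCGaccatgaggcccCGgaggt

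LIN28B canonical promoter: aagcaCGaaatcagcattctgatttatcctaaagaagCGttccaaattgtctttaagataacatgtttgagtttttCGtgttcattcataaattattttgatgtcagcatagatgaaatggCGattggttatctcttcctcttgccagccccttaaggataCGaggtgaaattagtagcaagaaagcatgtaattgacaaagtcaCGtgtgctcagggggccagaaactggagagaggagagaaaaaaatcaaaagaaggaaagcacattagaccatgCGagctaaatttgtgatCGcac

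At the upstream LIN28B start, the summit held 152 and 179 reads in DMSO and 203 and 251 in I-BET151. Per M ChIP reads the values were 19.1 and 18.2 in DMSO and 26.2 and 31.2 in I-BET151, a log2 ratio of 0.62 with no overlap. The summits were spread over 557 bp, and the widths, 990 and 960 bp in the DMSO libraries and 1004 and 996 bp in the I-BET151 libraries, differed by a mean of 25 bp. The fold over input, 4.55 and 2.82 in DMSO and 4.24 and 6.26 in I-BET151, did overlap between the groups. The local input level at the summit was 11.97 to 18 reads, 39.1 to 68.0 times the genome-wide input level. Over all peaks the median of this level was 10 to 13.1 reads by library. It was 9 to 15 reads at SALL4 and 10.6 to 14 reads at ATP9A. In order of summit reads LIN28B moved from above 12.9% and 13.3% of the 9352 genes in DMSO to above 43.0% and 52.3% in I-BET151.

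The intronic LIN28B peak was narrow, 293 to 334 bp in the 4 libraries, and its summits fell within 29 bp of each other. Of 10317 regions called in all 4 libraries, 0.853% were no wider than 334 bp in each of them. The 293 bp shared by all 4 libraries, chr6:104953035-104953327 in hg38 (plus strand), are shown because this site had the largest ratio of summit reads among the 5 regions. They hold 26 CpG sites, 0.967 of the number that their C and G content would give.

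LIN28B intronic peak: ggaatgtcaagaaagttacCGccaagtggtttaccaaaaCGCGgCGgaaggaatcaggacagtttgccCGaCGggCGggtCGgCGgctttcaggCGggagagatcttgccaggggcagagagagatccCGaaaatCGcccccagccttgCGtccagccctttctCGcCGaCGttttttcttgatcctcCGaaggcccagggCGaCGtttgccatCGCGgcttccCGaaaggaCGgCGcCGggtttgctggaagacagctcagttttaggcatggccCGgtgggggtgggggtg

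The summit of this peak held 52 and 49 reads in DMSO and 130 and 98 reads in I-BET151. Per M ChIP reads this was 6.53 and 4.98 in DMSO and 16.8 and 12.2 in I-BET151. Every I-BET151 value was above every DMSO value, and the ratio was 2.51 (log2 ratio 1.33), with 99.9% of the 10242 shared regions below it. The local input level was low but uneven, at 1 and 0.494 reads in DMSO and 3 and 2 in I-BET151. The fold over input was 10.4 and 10.3 in DMSO and 12.98 and 11.2 in I-BET151, a ratio of 1.16, the lowest of the 4 peaks that were higher in I-BET151 (1.34 to 1.42 at the other 3). Whether the higher input level contributes to the higher ChIP reads at this site was not tested.

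**Figure D3:**
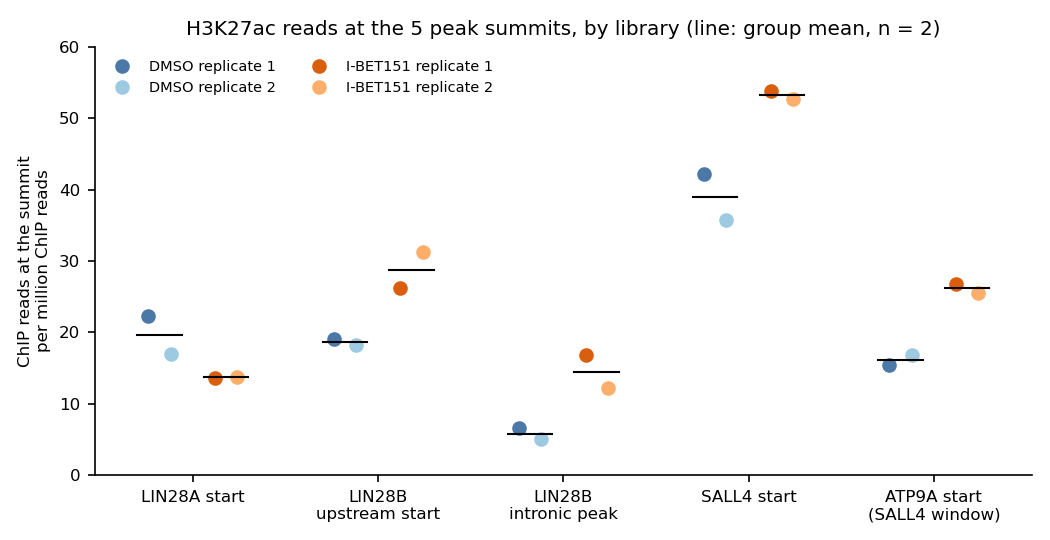
ChIP reads at the summit per M ChIP reads (vertical axis, from 0) for the 5 peaks in the windows, 1 point per library, with lines at the group means (n = 2). The I-BET151 points lie below the DMSO points at LIN28A and above them at the other 4 peaks.

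Across the 5 peaks, the 2 groups did not overlap in summit reads per M at any: 4 were higher in I-BET151 and 1 was lower. By fold over input the groups did overlap at the SALL4 start and at the upstream LIN28B start. Lack of overlap was common in these lists, at 29.8% of shared regions in the higher direction and 31.3% in the lower, and the median log2 ratio of all 10242 regions was 0.0012. The 4 higher peaks had log2 ratios above those of 94.0% to 99.9% of the regions. The direction and the lack of overlap held for all 5 peaks with reads left unscaled and with reads scaled to the median summit of the shared regions. With 2 libraries against 2, an exact permutation test (two-sided, 6 ways to assign the libraries) cannot give a p below 0.33, so no peak could pass a threshold of 0.05.

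In length covered by peaks, the same genes differed by less. At their own starts LIN28B and SALL4 were longer and LIN28A was shorter in I-BET151, each without overlap between the groups. For comparison, 13.7% of the 9400 genes with an own-start peak in all 4 libraries were longer without overlap and 36.2% were shorter. The mean over the 8 genes, the 5 empty ones included, was 540 ± 13.3 bp in DMSO and 519 ± 39.3 bp in I-BET151 (SD, n = 2), and the groups overlapped (exact permutation p = 0.67). Over the whole windows the mean was 683 ± 9.02 bp in DMSO and 700.1 ± 42.2 bp in I-BET151 (SD, n = 2; exact permutation p = 1). Over all protein-coding genes the mean covered length in the window was 944 bp in DMSO and 828 bp in I-BET151, a difference of -116 bp, and at the start the difference was -46.4 bp.

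**Figure D4:**
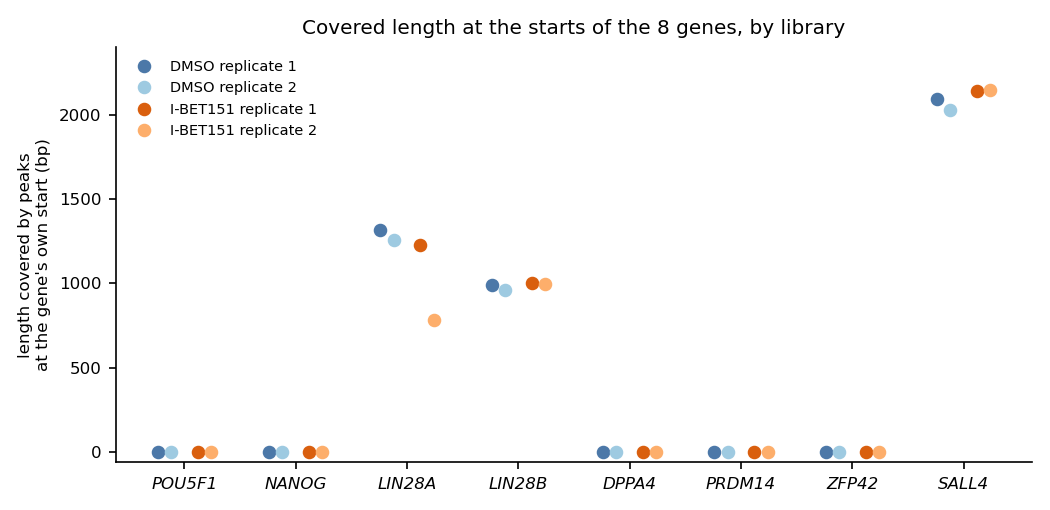
Length covered by peaks at the gene's own start in bp (vertical axis) for the 8 genes, 1 point per library. SALL4 lies between 2027 and 2146 bp, LIN28B between 960 and 1004 bp and LIN28A between 785 and 1316 bp, and the other 5 genes are at 0.

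The genes whose 4 own-start covered lengths were most like those of each gene, more than 1 Mb away, had no more than this profile as a basis. For LIN28A these were DNAJB1 and TECR, which gave identical values, and TRIM11 (Euclidean distance 100.4 to 101 bp over 4 libraries). For LIN28B they were TIRAP, MICU3 and REEP5 (22.3 to 24.6 bp), and for SALL4 HMGB1, HNRNPA0 and KMT5B (57.4 to 74.8 bp).

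Most of the wider pluripotency network had no peak at its starts. Of 26 other genes of the network, 20 had no own-start peak in any library, where 43.9% of protein-coding genes had none. Among these 20, the best known were SOX2, KLF4, NODAL, TDGF1, GDF3, DPPA2 and DNMT3B. Of the rest, 5 had one in all 4 libraries: JARID2, a component of Polycomb repressive complex 2, TRIM71, MYCN, L1TD1 and VRTN. TRIM71, an RNA-binding protein that is itself a let-7 target, was covered over 2667 and 2884 bp in the DMSO libraries and 3149 and 2536 bp in the I-BET151 libraries, with overlap between the groups. JARID2 was covered over 2517 and 2530 bp in the DMSO libraries and 2593 and 2552 bp in the I-BET151 libraries, without overlap.

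LEFTY1, an inhibitor of NODAL signalling, was the one gene of this list called in a single treatment. It had no own-start peak in the DMSO libraries and one of 302 and 288 bp in the I-BET151 libraries. These widths are near those of the narrowest peaks in the same lists, 254 and 249 bp. Over all protein-coding genes, 9.19% had an own-start peak in 1 to 3 libraries, whichever libraries these were. The share called in a single treatment was not counted. Of the 6 genes of the network list with an own-start peak in any library, 2 were longer in I-BET151 without overlap and 0 were shorter. Of all genes with such a peak, 14.1% were longer and 36.9% shorter.

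The genes around LIN28A and LIN28B were mostly marked, where 46.9% of all protein-coding genes were. Of 14 genes of the LIN28 and let-7 pathway, 11 had an own-start peak in all 4 libraries (TRIM71, of both lists, among them), 2 in some and 1 in none. The let-7 targets HMGA2, IGF2BP1 and IGF2BP3, named after their values were seen, were covered over 2734 to 2854 bp, 4433 to 4931 bp and 2481 to 2661 bp. Of the microRNA hosts in the list, MIR99AHG had no peak and MIRLET7BHG, the host of let-7a-3 and let-7b, had peaks of 439 and 1226 bp in DMSO and none in I-BET151.

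Of the 13 genes with a peak in any library, 5 were longer in I-BET151 without overlap and 3 were shorter, beside 14.1% and 36.9% of all such genes. DROSHA, which makes the first cut in microRNA maturation, was covered over 367 and 254 bp in DMSO and over 0 bp in both I-BET151 libraries. The narrowest peaks of the same DMSO lists were 272 and 247 bp. XPO5, which exports the precursors from the nucleus, had 822 and 562 bp in the DMSO libraries and 534 and 547 bp in the I-BET151 libraries. Most of that difference came from DMSO replicate 1. DGCR8, the partner of DROSHA, went the other way, with 647 and 622 bp in the DMSO libraries and 1388 and 653 bp in the I-BET151 libraries. Nearly all of its difference came from I-BET151 replicate 1. DICER1, which makes the second cut, had 1191 and 1330 bp against 1378 and 1357 bp, and IGF2BP2, a let-7 target, had 2969 and 2946 bp against 3064 and 3065 bp. The pathway thus held genes in both directions.

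The chromatin regulators that SALL4 and PRDM14 work with were marked with 1 exception. These are subunits of the NuRD deacetylase complex, Polycomb repressive complex 2 and partners such as CBFA2T2 and KDM1A, and 14 of 15 had an own-start peak in all 4 libraries, beside 46.9% of all protein-coding genes. SUZ12 had none in any. Of the 14, 2 were longer in I-BET151 without overlap and 2 were shorter, where 13.7% and 36.2% of all genes with such a peak were. EZH2, the methyltransferase of Polycomb repressive complex 2, was covered over 1410 and 1387 bp in the DMSO libraries and 1692 and 1689 bp in the I-BET151 libraries, and CHD4, the remodeller of NuRD, over 1481 and 1456 bp against 1582 and 1533 bp. MTA1 and GATAD2B, also of NuRD, were shorter in I-BET151 without overlap, MTA1 by a margin of 1 bp between its nearest libraries.

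**Figure D5:**
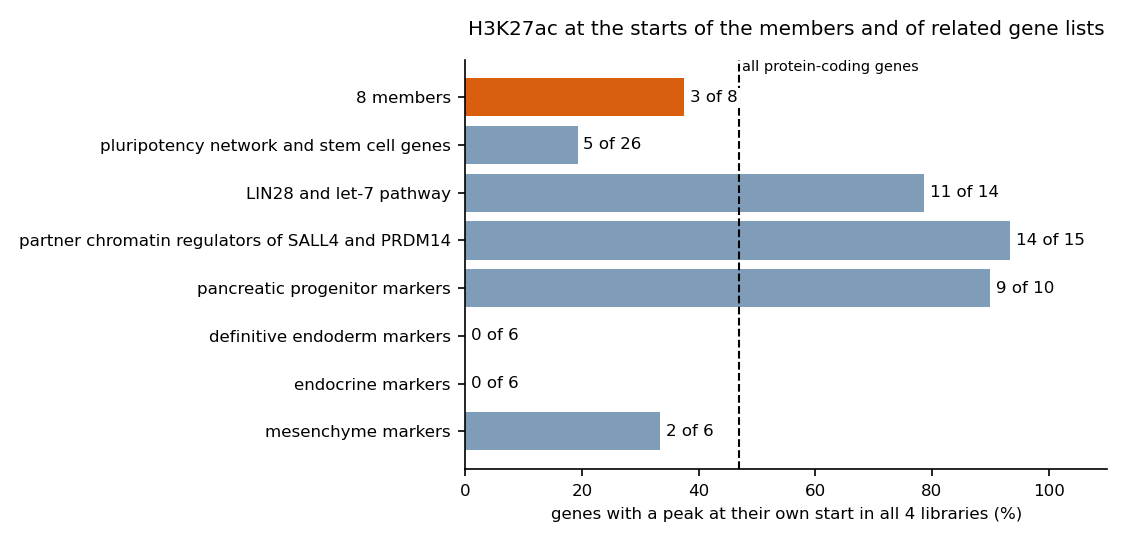
Share of genes with an own-start peak in all 4 libraries (horizontal axis, percent, from 0) for the 8 genes and the related lists, with the number of genes beside each bar. The dashed line is the share among all protein-coding genes, 46.9%, and the bars range from 0 of 6 for endocrine and definitive endoderm markers to 14 of 15 for the chromatin regulators.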

How the data were processed

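H3K27ac peak lists of 2 DMSO and 2 I-BET151 libraries were analysed. The 4 input libraries entered only through the authors' peak calls. The authors aligned reads to hg38 with Bowtie2 2.2.5 and removed duplicates and mitochondrial reads. They called peaks in each library with MACS2 2.1.2 at default settings, which keep peaks with a q-value of at most 0.05. The deposited values are a fold ratio over the local input, and −log10 p-values and −log10 q-values. Replicates were not pooled.

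Members and gene lists were chosen with earlier results of these data known. Windows, starts and the canonical start of each gene came from GENCODE release 44. Peaks sharing 1 bp were merged into regions. Own-start covered length was the length covered by peaks with a summit within 3 kb of any annotated start of the gene. A peak was named by the protein-coding gene with the nearest start. All 8 members were named. Of the other lists, genes were named that went against most of their list in having a peak, or whose groups did not overlap, up to 6 a list by size, and others are said to be chosen after their values were seen.

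ChIP reads at a summit were solved from fold, (ChIP + 1)/(input + 1) with ChIP scaled to the input total, and the Poisson p-value. Input here is the local level that the caller used for the peak, which need not be a whole count of reads at the summit. All peaks with 1 solution gave whole reads (100% within 0.005). Depth assumes the caller's genome size of 2.7 Gb. It also takes the lowest input level solved in a list as the genome-wide level and the narrowest peak width as the read extension. Read recovery was tested on simulated data. These reads cover counting error only.

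Groups were compared by two-sided exact permutation tests (Python 3.11.15, NumPy 2.4.6, SciPy 1.17.1, figures with Matplotlib 3.10.9). The composite motif and the read scalings were added after seeing the data. Sequences came from RefSeq promoters (GRCh38.p14) and hg38.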

Additional observations from a re-analysis of the deposited data

How the results depend on the processing

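Of 137 alternative values for 17 results, 127 kept their direction and stayed within 1 SD between libraries or, for counts, within 1.5 times. Another 6 moved further and 4 changed sign. The mean difference in covered length over the windows, 17.1 bp, became 77.1 bp with the 12312 top-ranked peaks of each list and -19.2 bp with windows of 10 kb, which leave out the ATP9A peak. Leaving out 1 library gave -12.75 to 46.9 bp, and the sign changed without I-BET151 replicate 1. At the own starts the mean difference of -21.4 bp became 38.6 bp with the top-ranked peaks, and leaving out 1 library gave -49.25 to 6.375 bp, with the sign changed without I-BET151 replicate 2. The labels link libraries of the 2 groups only by replicate number. The replicate differences of the 2 groups correlated at 0.0957 over 11241 genes, which cannot show whether libraries of the same number shared a culture or batch. Each replicate number occurs once in each group, so a replicate block cannot change a mean difference, and both means stayed at 17.1 and -21.4 bp. The values with the block, counted among the 127, were thus fixed in advance. No direction is read from these means. Other values among the 127 could not change either. The lowest −log10 q-value of a peak in the windows was 8.08, so a cutoff of 5 removed none of these peaks. LIN28A has 1 annotated start, so using canonical starts only left its value as it was. Merging peaks across short gaps could not join regions that lie far apart. Leaving out 1 library could not lower the number of genes with an own-start peak in every library used. The 127 is thus not a count of independent checks. The 3 genes with an own-start peak in all 4 libraries became 2 with canonical starts only and 2 with the top-ranked peaks, each time because LIN28B dropped out, at the second through DMSO replicate 2. The 5 empty windows stayed empty under every alternative run, but only the wider windows could have added a peak. The other alternatives remove peaks or libraries, so their outcome here was fixed in advance. Leaving out 1 library gave log2 ratios of summit reads of -0.71 to -0.31 at LIN28A, 0.49 to 0.74 at the upstream LIN28B start, 1.08 to 1.54 at the intronic LIN28B peak and 0.34 to 0.58 at SALL4. The own-start difference of LIN28B, 25 bp, was 40 bp without DMSO replicate 1, 10 bp without DMSO replicate 2, 505 bp with the top-ranked peaks, which leave out its DMSO replicate 2 peak, and 0 bp with the canonical start only. Sites with fewer than 10 or 11 ChIP reads could not be called at this depth.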
